A study of Mus musculus with 12 samples.

Results

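Ccl3, Ccl4, Ccl5, Ccl6 and Ccl9 are 5 neighbouring CC chemokine genes of mouse chromosome 11, known by their older protein names as MIP-1α (Ccl3), MIP-1β (Ccl4), RANTES (Ccl5), C10 or MRP-1 (Ccl6) and MIP-1γ or MRP-2 (Ccl9). They were chosen by name and not by a measured value, and each of the 5 matched 1 of the 24346 genes in the expression table. The values come from RNA sequencing of bone-marrow-derived macrophages of WT mice, grown from bone marrow for 7 days in RPMI with 10% serum and M-CSF, the growth factor that turns marrow cells into macrophages. The 12 libraries form 4 groups of 3: control cells with no treatment, cells given lipopolysaccharide (LPS, a bacterial cell wall component) at 1 ng/ml for 3 h, cells given tunicamycin at 5 ug/ml, and cells given tunicamycin for 3 h and then LPS for 3 h. Tunicamycin stops the first step of N-linked glycosylation, which leaves misfolded protein in the endoplasmic reticulum (ER stress), and the title of the study names the effect of ER stress on the inflammatory response as its subject. Strain, sex, age, the length of exposure to tunicamycin alone, and whether tunicamycin stayed on the cells with LPS are not given in the sources used here. No label ties the replicates to separate mice or dishes, so p-values reflect only the spread between these samples, which may be technical.

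CC chemokines are small secreted proteins that attract leukocytes by binding G-protein-coupled receptors. Ccl3 and Ccl4 are early products of macrophages that sense LPS through TLR4. Ccl3 and Ccl5 bind Ccr1, and Ccl5 also binds Ccr3 and is abundant in T and NK cells. Ccl6 and Ccl9, which have no human gene of the same name, are made by myeloid cells without stimulation and signal mainly through Ccr1.

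Values are FPKM, in which fragments are divided by the length of the transcript and by the library's mapped total, so that levels of different genes can be compared per length. Summed FPKM per library was 561108 to 685010, libraries of 1 group correlated across genes with Pearson's r of 0.9726 to 0.9857 and those of different groups with 0.8887 to 0.9515, and read depth is unknown. The first 2 principal components held 40.1% and 30.3% of the variance. Along the third, with 6.85%, control replicate 2 (score 19.5) and tunicamycin plus LPS replicate 3 (23.8) lay at 1 end, and along the fourth tunicamycin plus LPS replicates 1 (-20.5) and 3 (23.3) lay at opposite ends. All 10 macrophage markers were present, with a summed level of 16100 to 20900 FPKM in control libraries, 20800 to 25600 with LPS, 19700 to 23300 with tunicamycin and 16600 to 25500 with both. Lyz2 (mean 11380 FPKM in controls and 16200 with tunicamycin) and Cd68 (4298 and 2886) made up most of these sums. The summed levels of T and NK cell markers did not exceed 2.46 FPKM in any library, with Cd8a, Klrb1c and Ncr1 listed at 0 in all 12. In a whole culture, fewer cells of a type and less RNA per cell cannot be told apart.

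The 5 genes lie within 138.9 kb, from position 83525778 to 83664683 of chromosome 11 (mm10, GENCODE M21), in the order Ccl5, Ccl9, Ccl6, Ccl3 and Ccl4. Ccl4 alone is on the plus strand. From the start of Ccl5 the starts of the others are 48.1 kb (Ccl9), 62.6 kb (Ccl6), 118.8 kb (Ccl3) and 132.1 kb (Ccl4) away. Ccl3, Ccl4 and Ccl5 each have 3 exons and coding sequences of 279, 279 and 276 bases, and Ccl6 and Ccl9 have 4 exons and 351 and 369 coding bases. The coding sequences of Ccl3 and Ccl4 were 71.4% identical and those of Ccl6 and Ccl9 70.6%, and the 8 other pairs were below those 2. No run of 30 bases was shared between the transcripts of 2 of these genes, and Ccl3, Ccl4 and Ccl5 shared none with any other gene. Of such runs 19 of 1411 in Ccl6 (1.35%) and 119 of 2977 in Ccl9 (4%) occurred in other genes. The RefSeq span of Ccl4 (83648624 to 83664683) overlaps that of Ccl3 on the other strand, and no source used here says whether the counting used strand, so reads in the overlap cannot be told apart.

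The 250 bases before the start of Ccl3, Ccl6 and Ccl9 are shown because these 3 genes differed in their response to LPS: a large rise, none that passed the test, and a small rise. They are taken from RefSeq (GRCm38.p6), which matched these 3 of the 5 genes, and are written 5′ to 3′ in the direction of the gene, with matches to the motifs searched in capitals.

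Ccl3 promoter, chr11:83649379-83649628, minus strand: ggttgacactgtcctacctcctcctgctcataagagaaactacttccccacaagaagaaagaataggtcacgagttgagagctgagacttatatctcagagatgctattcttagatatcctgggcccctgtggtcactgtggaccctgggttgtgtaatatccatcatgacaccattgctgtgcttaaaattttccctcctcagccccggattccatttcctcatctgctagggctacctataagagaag

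Ccl6 promoter, chr11:83593088-83593337, minus strand: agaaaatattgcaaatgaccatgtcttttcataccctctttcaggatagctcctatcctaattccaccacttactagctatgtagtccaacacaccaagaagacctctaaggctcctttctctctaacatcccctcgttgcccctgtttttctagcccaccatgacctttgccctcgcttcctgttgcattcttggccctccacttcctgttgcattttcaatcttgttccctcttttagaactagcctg

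Ccl9 promoter, chr11:83578637-83578886, minus strand: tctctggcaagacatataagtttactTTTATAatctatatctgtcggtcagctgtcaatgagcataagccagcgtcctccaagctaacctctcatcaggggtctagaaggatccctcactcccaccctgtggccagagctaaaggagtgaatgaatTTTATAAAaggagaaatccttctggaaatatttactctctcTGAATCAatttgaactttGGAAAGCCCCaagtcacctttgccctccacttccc

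The motifs were searched on both strands, and position -1 is the base before the start. Ccl9 held 5 matches: 1 to the NF-kB pattern (GGG, any 5 bases, CC) on the opposite strand at -35 to -26, 1 to the AP-1 pattern TGANTCA at -53 to -47, and 3 to TATAAA, at -224 to -219, -94 to -89 and -92 to -87, of which the last 2 overlap each other. Ccl3 and Ccl6 held 0 matches. Of 32851 RefSeq promoters of this length 45.8% held the NF-kB pattern, 6.75% the AP-1 pattern and 12.4% TATAAA. The other patterns searched had no match in the 3 promoters, and occurred in 2.98% (interferon response, GAAA, any 2 bases, GAAA), 1.55% (CRE, TGACGTCA), 0.791% (ATF4, TGATGCAA), 0.164% (C/EBP, TTGCGCAA) and 2.44% (PU.1, GAGGAAGT) of promoters. Ccl6 and Ccl9 shared a run of 13 bases, GCCCTCCACTTCC, at -55 to -43 in Ccl6 and -14 to -2 in Ccl9, which 5 of the 32851 promoters held. A match describes letters and not a bound site.

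The 3' ends differ as well. The pentamer ATTTA, part of the AU-rich elements by which Zfp36 and related proteins bring about decay of cytokine mRNAs, occurred 5 times in the 3' UTR of Ccl3 (409 bases), 2 times in that of Ccl4 (302 bases), 0 times in Ccl5 (199 bases), 4 times in Ccl6 (943 bases) and 5 times in Ccl9 (2465 bases). Of 6729 tested genes whose 3' UTR falls within that range of lengths, 66.4% held at least 1 ATTTA and 26.7% at least 3. The longer pattern TTATTTATT occurred in none of the 5 and in 7.03% of 9594 tested genes with a 3' UTR. A window of 30 bases that holds 2 of them is shown for Ccl3, Ccl6 and Ccl9 (mm10, GENCODE M21), 5′ to 3′ in the direction of the gene, with ATTTA in capitals.

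Ccl3 3' UTR window, chr11:83648075-83648104, minus strand: ttgaaattttATTTAATTTAatcctattgg

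Ccl6 3' UTR window, chr11:83588723-83588752, minus strand: ttatagatATTTAaagcATTTAtccttctg

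Ccl9 3' UTR window, chr11:83573241-83573270, minus strand: tccATTTAtacagtggatctcATTTActga

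In the Ccl3 window the pentamers follow each other without a gap, and in the Ccl6 and Ccl9 windows they stand apart.

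**Figure D1:**
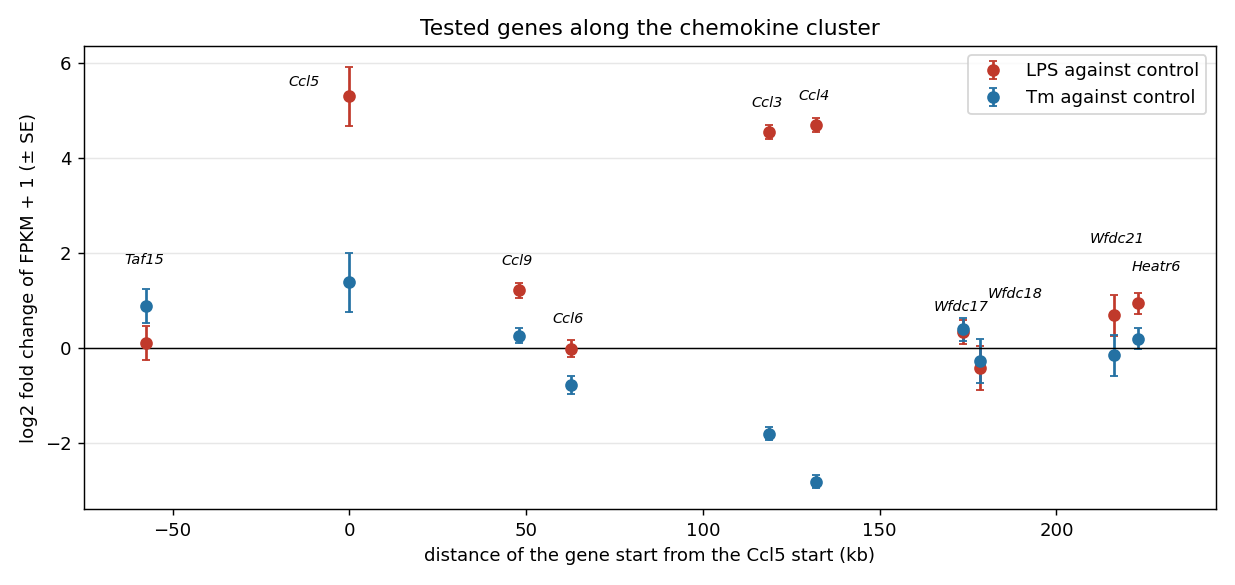
Log2 fold change (± SE) with LPS and with tunicamycin (Tm), each against control, of the 5 chemokine genes and the 5 tested neighbours, by the distance of the gene start from that of Ccl5 in kb. Of the 5 tested neighbours that are not chemokines only Heatr6 rose with LPS, by 0.95, and 0 passed with tunicamycin.

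In untreated macrophages Ccl4 was the most abundant of the 5, Ccl9, Ccl3 and Ccl6 stood close together, and Ccl5 was the lowest. Ccl4 was at 279, 355.6 and 316 FPKM in control replicates 1 to 3 and ranked 258 to 305 among the 24346 genes. Ccl9 was at 140.6, 158.4 and 155.2 FPKM, Ccl3 at 137.8, 147.8 and 147.2, and Ccl6 at 92, 147.9 and 101.1. Ccl9 overlapped Ccl3, and Ccl3 overlapped Ccl6, so the order of these 3 is within their spread, whereas Ccl4 was above all of them in every control library. Ccl5 was at 0.647, 4.27 and 2.65 FPKM, a 6.59-fold range, and below the other 4 in each library.

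**Figure D2:**
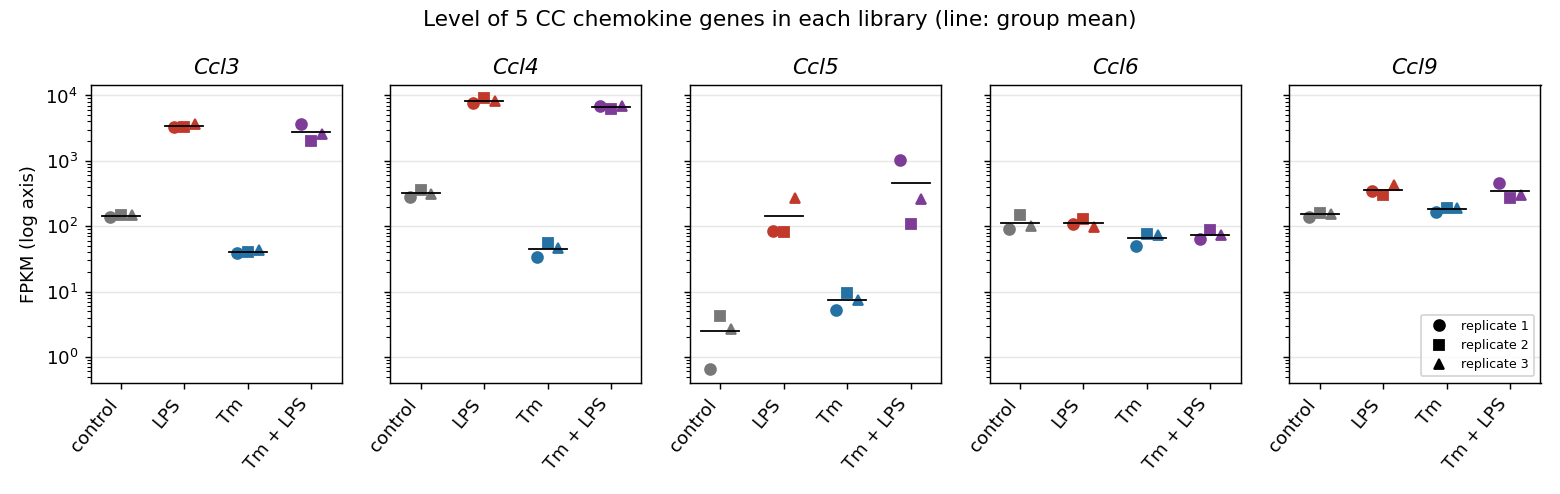
FPKM on a log axis of Ccl3, Ccl4, Ccl5, Ccl6 and Ccl9 in each of the 12 libraries by group (Tm: tunicamycin), with the group mean as a line. Ccl4 runs from 33.3 FPKM with tunicamycin to 9000 with LPS and Ccl5 from 0.647 in a control to 1020 with both agents, while every Ccl6 value lies between 50.2 and 147.9 FPKM.

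LPS raised Ccl3, Ccl4, Ccl5 and Ccl9, and Ccl6 did not pass the test. These 4 of 5 passed at an adjusted p under 0.05 in limma, where 18.4% of the 10311 genes tested passed, 10.5% as rises and 7.86% as falls. The 4 also had groups that did not overlap, which held for 33.7% of all genes. The median log2 fold change of the 5 was 4.55, against 0.00 over all genes tested. Fold changes were computed from log2(FPKM + 1), so that of a low gene such as Ccl5 is understated, and are followed by their standard error from the fit to all 12 libraries.

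Ccl4 reached 7612, 9000 and 8104 FPKM with LPS, a mean of 8239 ± 704 (SD, n = 3) against 317 ± 38.3 in controls. All 3 LPS libraries were far above all 3 controls, and Ccl4 ranked 6 to 8 among all genes of those libraries. Its log2 fold change was 4.70 ± 0.14, 26-fold (limma adjusted p = 1.74e-13). Ccl3 reached 3330, 3264 and 3605 FPKM, with its log2 level 4.55 ± 0.14 higher, 23.4-fold (limma adjusted p = 2.53e-13). The groups stood just as far apart, and Ccl3 ranked 13 or 14 in the LPS libraries.

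Ccl5, the ligand with the broadest receptor use of the 5, was at 85.7, 80.8 and 270 FPKM with LPS. Each LPS library was above each control, but replicate 3 was 3.34 times replicate 2. The log2 fold change was 5.30 ± 0.62, 39.3-fold (limma adjusted p = 6.29e-06), with the largest standard error of the 5. Ccl9 was at 347.8, 299.1 and 421.2 FPKM against 140.6 to 158.4 in controls, with no overlap. Its rise of 1.22 ± 0.16 on the log2 scale, 2.32-fold (limma adjusted p = 1.86e-05), was small beside those of Ccl3 and Ccl4. Ccl6, its neighbour and closest relative in coding sequence, was at 107.8, 128 and 98.1 FPKM, inside the range of the controls. The log2 difference of Ccl6 was -0.01 ± 0.18 (limma adjusted p = 0.987), and its sign turned when control replicate 2 (0.20), LPS replicate 1 (0.01) or LPS replicate 3 (0.08) was left out. With LPS the order of the levels became Ccl4, Ccl3, Ccl9, Ccl5 and Ccl6, of which only Ccl5 and Ccl6 overlapped.

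Markers of other cells moved in the same comparison. Of 5 neutrophil markers tested (8 in the table) 3 rose, where 18.4% of all genes passed and 10.5% rose. They were Ngp (1.74 ± 0.26), S100a9 (1.58 ± 0.40) and Ltf (1.08 ± 0.36), and S100a8 did not pass (0.99 ± 0.48, limma adjusted p = 0.189). The sum of the 8 was 86.7 to 126 FPKM in controls and 190 to 317 with LPS, mostly from S100a8 and S100a9. Among the granule genes of that list Ngp and Ltf thus rose and Camp did not pass, while Elane and Mpo stayed at or below 0.939 FPKM in all 12 libraries. No marker of that list was at 0 in all of them. Both tested dendritic cell markers, Ccr7 and Xcr1, rose. They reached 1 FPKM only in libraries given LPS, so the filter favoured a rise. Flt3, Siglech and Clec9a of that list stayed at or below 0.1483 FPKM in all 12 libraries. Sums for the 6 of the list were 0.179 to 0.594 FPKM in controls and 3.91 to 8.78 with LPS. Their part in the chemokine values was not tested. The T and NK cell sum was 0.298 to 1.19 FPKM in controls and 1.68 to 1.97 with LPS, with Cd3e at 0 in all 6 of these libraries.

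**Figure D3:**
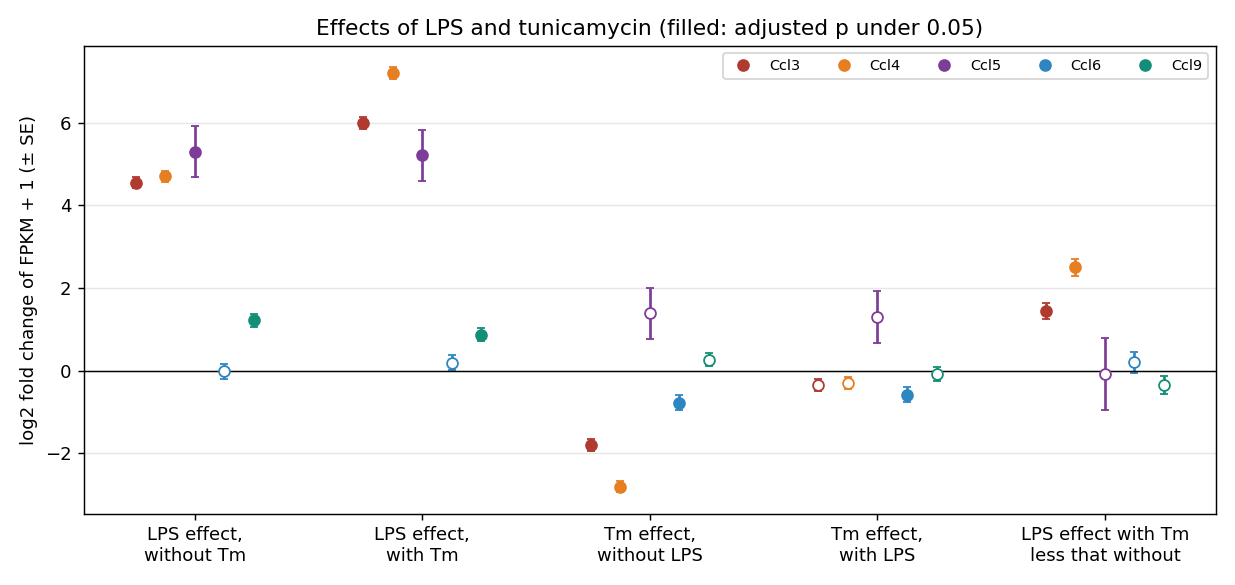
Log2 fold change on the log2(FPKM + 1) scale with its standard error for Ccl3, Ccl4, Ccl5, Ccl6 and Ccl9 from the fit to all 12 libraries: LPS effect without and with tunicamycin (Tm), tunicamycin effect without and with LPS, and the interaction, with filled points for those that passed. Ccl3 and Ccl4 lie far below 0 with tunicamycin alone (-1.79 and -2.80) and near 0 between both agents and LPS alone (-0.35 and -0.30).

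Tunicamycin alone moved the group apart: Ccl4, Ccl3 and Ccl6 fell, while Ccl5 and Ccl9 had higher values that did not pass the test. In limma 3 of 5 passed, all as falls, where 34.5% of all genes tested passed, 17.9% as rises and 16.6% as falls. For all 5 the tunicamycin and control libraries did not overlap, a pattern found in 48.2% of all genes. The median log2 fold change of the 5 was -0.77, against 0.03 over all genes tested.

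Ccl4 was at 33.3, 56.1 and 46.5 FPKM with tunicamycin, all far below the lowest control of 279. Its fall was -2.80 ± 0.14 on the log2 scale, 6.98-fold (limma adjusted p = 3.22e-10), and its rank went to 1505 to 2425. Ccl3 was at 39.1, 40.8 and 43 FPKM, a narrow range below the lowest control of 137.8. It fell by 1.79 ± 0.14 on the log2 scale, 3.46-fold (limma adjusted p = 7.86e-08). Ccl6 was at 50.2, 74.8 and 72.4 FPKM, below the lowest control of 92 in each library. The fall of Ccl6 was -0.77 ± 0.18 on the log2 scale, 1.71-fold (limma adjusted p = 0.0034).

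Ccl9 was at 167, 190.5 and 190.2 FPKM with tunicamycin, each above the highest control of 158.4. The log2 difference of Ccl9 was 0.27 ± 0.16 (limma adjusted p = 0.2), which passed after quantile normalization (0.50, adjusted p = 0.0173) and in a fit to the 6 libraries of the contrast alone (adjusted p = 0.0338). Ccl5 was at 5.31, 9.65 and 7.42 FPKM, each above the highest control of 4.27. The log2 difference of Ccl5 was 1.39 ± 0.62 (limma adjusted p = 0.094), and passed in a fit to the contrast's 6 libraries (adjusted p = 0.023) and without tunicamycin plus LPS replicate 1 (adjusted p = 0.0256) or 2 (0.0437). With tunicamycin the order of the levels was Ccl9, Ccl6, Ccl4, Ccl3 and Ccl5, where Ccl4 overlapped both Ccl6 and Ccl3, and Ccl6 was above Ccl3 in every library. Ccl4, the highest in each of the other 3 groups, was thus below Ccl9 in every tunicamycin library.

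Beside these values, 5 of 10 macrophage markers fell and 1 rose with tunicamycin, where 16.6% of all genes tested fell and 17.9% rose. The neutrophil marker sum was 14.3 to 25.8 FPKM, with 3 of 5 tested markers lower, and the stromal marker sum was 29.7 to 50.4 against 15.5 to 20 FPKM in controls, with 4 of 6 higher. No stromal marker was at 0 in all 12 libraries. Of those that rose, Col3a1 and Lum reached 1 FPKM only in libraries given tunicamycin. The filter thus favoured their rise, here and with both agents. The part of these cells in the chemokine values was not tested.

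With LPS after tunicamycin, Ccl3, Ccl4, Ccl5 and Ccl9 were also higher than with tunicamycin alone, whose length of exposure is not given. These rises began from the altered starting levels. In tunicamycin plus LPS against tunicamycin alone these passed as rises in limma, 4 of 5, where 15.7% of all genes passed, 8.69% as rises and 7.00% as falls. The same 4 had groups that did not overlap (31.7% of all genes). Ccl4 was at 6901, 6308 and 6833 FPKM with both agents, the narrowest spread of Ccl4 in any group relative to its mean and rank 9 in each library. It stood 7.20 ± 0.14 on the log2 scale above tunicamycin alone, 147-fold (limma adjusted p = 1.4e-15). Ccl3 was at 3628, 2038 and 2557 FPKM, a wider spread than with LPS alone. Its rise was 5.99 ± 0.14 on the log2 scale, 63.5-fold (limma adjusted p = 1.17e-14).

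Ccl5 was at 1020, 107.6 and 259 FPKM with both agents, a 9.48-fold range within 1 group. All 3 values were above those with tunicamycin alone, and the log2 fold change was 5.21 ± 0.62 (limma adjusted p = 1.2e-05). That estimate was 4.34 without replicate 1 of the group with both agents and 5.96 without replicate 2. Ccl9 was at 451.4, 272.2 and 299.8 FPKM, with each library above the highest value with tunicamycin, 190.5. The rise of Ccl9 was 0.87 ± 0.16 on the log2 scale, 1.82-fold (limma adjusted p = 0.0009). Ccl6 was at 63.8, 86.8 and 73 FPKM, overlapping the 50.2 to 74.8 with tunicamycin alone. The log2 difference of Ccl6 was 0.19 ± 0.18 (limma adjusted p = 0.545). In this contrast 1 of 5 tested neutrophil markers and 1 of 2 tested dendritic cell markers, Ccr7, rose, where 8.69% of all genes rose. Ccr7 reached 1 FPKM only in libraries given LPS, so the filter favoured its rise. The sum of the dendritic cell list was 2.18 to 5.27 FPKM with both agents and 0.501 to 1.14 with tunicamycin. The part of these cells was not tested.

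On the log2 scale the LPS effect was larger with tunicamycin than without it for Ccl3 and Ccl4. The length of exposure to tunicamycin alone is not given, so a difference in exposure time cannot be told apart from the LPS effect with tunicamycin. This difference of differences passed in limma for these 2 of 5 genes, both higher, where 3.37% of all genes passed, 1.41% higher and 1.96% lower. It was 2.50 ± 0.20 on the log2 scale for Ccl4 (5.67-fold, limma adjusted p = 1.1e-06) and 1.44 ± 0.20 for Ccl3 (2.72-fold, limma adjusted p = 0.000394). For Ccl4 the comparison set 147-fold against 26-fold, and the lower starting level with tunicamycin, 45.3 ± 11.4 against 317 ± 38.3 FPKM, enters it directly. The mean end level of Ccl4 was 6681 ± 325 FPKM with both agents and 8239 ± 704 with LPS alone, and that of Ccl3 2741 ± 811 and 3399 ± 181. For Ccl5 it was -0.08 ± 0.87 (adjusted p = 0.979), for Ccl6 0.20 ± 0.25 (adjusted p = 0.796) and for Ccl9 -0.35 ± 0.22 (adjusted p = 0.503), none of which passed in limma.

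Between both agents and LPS alone, the end levels of the 5 lay closer together, and only Ccl6 passed, as a fall. That was 1 of 5, where 28.9% of all genes passed, 13.8% as rises and 15.1% as falls. Ccl4 and Ccl6 had groups that did not overlap, as did 40.3% of all genes. The median log2 difference of the 5 was -0.30, against 0.00 over all genes. Ccl6 was at 63.8 to 86.8 FPKM with both agents and at 98.1 to 128 with LPS, lower in each library. Its fall was -0.58 ± 0.18 on the log2 scale, 1.49-fold (limma adjusted p = 0.0246). It no longer passed with no filter on low genes (adjusted p = 0.0858), without the trend in the fit (0.0656), or without LPS replicate 1 (0.0528) or 2 (0.107) or replicate 1 (0.0906) or 3 (0.061) of the group with both agents.

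Every Ccl4 value with both agents (6308 to 6901 FPKM) was below every value with LPS (7612 to 9000), yet the log2 difference of -0.30 ± 0.14 did not pass (limma adjusted p = 0.126). It passed after quantile normalization (-0.54, adjusted p = 0.012) and without tunicamycin replicate 1 (-0.30, adjusted p = 0.0398). For Ccl3 the difference was -0.35 ± 0.14 (limma adjusted p = 0.0756), with replicate 1 of the group with both agents, 3628 FPKM, above all LPS libraries and the other two below them. Without that library it was -0.57 (adjusted p = 0.000554). The Ccl5 difference of 1.30 ± 0.62 (limma adjusted p = 0.128) came from overlapping groups, and passed without LPS replicate 3 (1.86, adjusted p = 0.0472) or without replicate 2 of both agents (2.05, adjusted p = 0.0143). Without replicate 1 of both agents it was 0.43 (adjusted p = 0.572). The Ccl9 difference was -0.08 ± 0.16 (limma adjusted p = 0.735), and its sign turned after quantile normalization (0.14), without LPS replicate 3 (0.04) or without replicate 2 of both agents (0.06). Neutrophil markers moved here too: 4 of 5 tested were lower with both agents, where 15.1% of all genes fell and 13.8% rose. The sum of that list was 17.1 to 31.7 FPKM against 190 to 317 with LPS. Of the 10 macrophage markers 4 were lower, and 2 of 6 stromal markers were higher, with a sum of 25.9 to 59.6 against 18 to 23.6 FPKM. Their part in these differences was not tested.

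Against untreated cells, both agents together left 4 of the genes higher and Ccl6 lower. All 5 passed in limma, where 40.8% of all genes passed, 20.7% as rises and 20.2% as falls, and none of the 5 had groups that overlapped, as in 47.9% of all genes. This contrast shares its libraries with those above, so the values are given side by side only. The log2 fold changes were 4.20 ± 0.14 for Ccl3 (18.4-fold, limma adjusted p = 5.9e-13), 4.40 ± 0.14 for Ccl4 (21.1-fold, adjusted p = 3.35e-13), 6.60 ± 0.62 for Ccl5 (96.9-fold, adjusted p = 2.57e-07) and 1.13 ± 0.16 for Ccl9 (2.19-fold, adjusted p = 2e-05). The Ccl5 value was 5.73 without replicate 1 of both agents and 7.35 without replicate 2. Ccl6 was lower by -0.58 ± 0.18 on the log2 scale, 1.5-fold (limma adjusted p = 0.0162). That call was lost with no filter (adjusted p = 0.0613), without control replicate 2 (-0.38, adjusted p = 0.101) and without replicate 1 of both agents (adjusted p = 0.0663). Of 10 macrophage markers 1 was higher and 4 were lower here, of 5 neutrophil markers 2 were lower, and of 6 stromal markers 3 were higher. Of 2 tested dendritic cell markers, which passed the filter only through libraries given LPS, 1 was higher. Sums for the list were 2.18 to 5.27 against 0.179 to 0.594 FPKM. The 1 tested B and plasma cell marker was lower, with sums of 0.296 to 1.13 against 0.85 to 3.12 FPKM for that list. Their part in these values was not tested.

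The make-up of the chemokine output, as shares of summed FPKM, differed most between the tunicamycin group and the others. The 5 genes together were at 650.1 to 814 FPKM in controls, 11480 to 12770 with LPS, 295 to 371.7 with tunicamycin and 8812 to 12070 with both. Ccl3 and Ccl4 made up 61.8% to 64.1% of that sum in controls and 93.7% to 96% with LPS, but 24.6% to 26.1% with tunicamycin. Ccl6 and Ccl9 made up 71.3% to 73.6% with tunicamycin, against 35.5% to 37.6% in controls and 3.34% to 4.16% with LPS. With both agents the shares, 87.3% to 94.7% for Ccl3 and Ccl4 and 3.72% to 4.27% for Ccl6 and Ccl9, were near those with LPS. Ccl5 ranged from 0.0996% to 0.524% of the sum in controls to 1.22% to 8.46% with both agents.

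**Figure D4:**
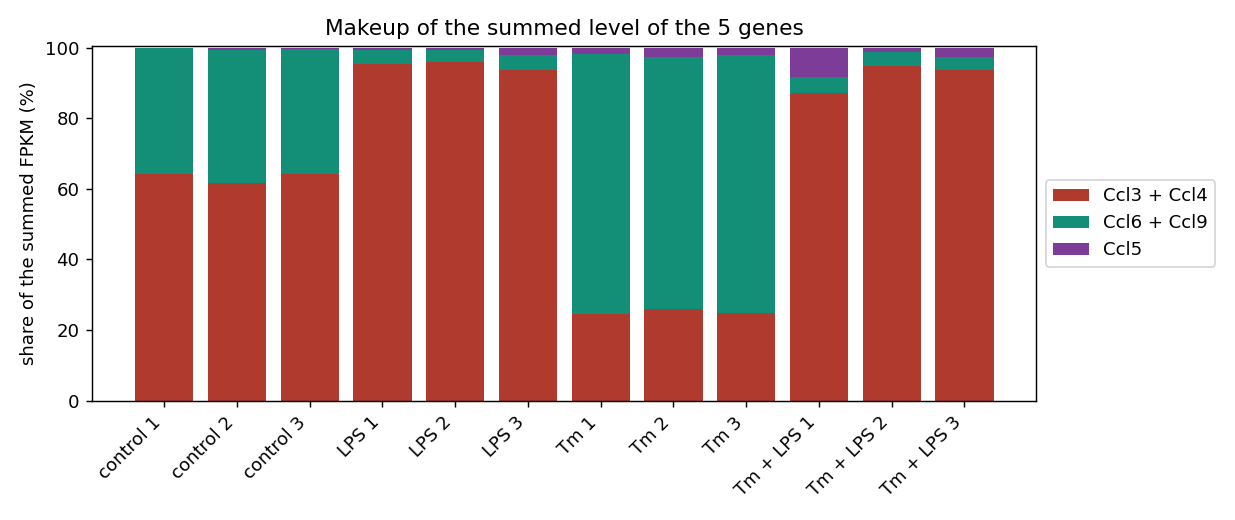
Share of the summed FPKM of Ccl3, Ccl4, Ccl5, Ccl6 and Ccl9 taken by Ccl3 plus Ccl4, by Ccl6 plus Ccl9 and by Ccl5 in each of the 12 libraries, in percent. Ccl6 and Ccl9 together hold 71.3% to 73.6% in the 3 tunicamycin libraries and no more than 37.6% in any other.

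Ratios within a library, which do not depend on its scaling, showed the same unequal change. Ccl4 over Ccl3 was 2.02, 2.41 and 2.15 in controls, 2.29, 2.76 and 2.25 with LPS, 0.851, 1.38 and 1.08 with tunicamycin, and 1.9, 3.1 and 2.67 with both. The 3 tunicamycin libraries were below the other 9. Ccl9 over Ccl6 was 1.53, 1.07 and 1.54 in controls, 3.23, 2.34 and 4.29 with LPS, 3.33, 2.55 and 2.63 with tunicamycin, and 7.08, 3.14 and 4.11 with both. All 9 treated libraries were above the controls for this neighbouring pair. Of the summed FPKM of all CC ligands (these 5 and the 16 others in the table), the 5 held 39.9% to 44% in controls, 70.9% to 75.1% with LPS, 84.9% to 86.9% with tunicamycin and 81.3% to 84.3% with both.

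Replicates of 1 group differed most for Ccl5. Its highest library was 6.59 times its lowest in controls, 3.34 times with LPS, 1.82 times with tunicamycin and 9.48 times with both agents. With both agents, replicate 1 was the highest and replicate 2 the lowest for Ccl5, Ccl3 and Ccl9, by 9.48, 1.78 and 1.66 times, and also for Ccl4, by 1.09 times. Ccl6 had its highest value in replicate 2. With LPS, replicate 3 was the highest and replicate 2 the lowest for Ccl3, Ccl5 and Ccl9, while Ccl4 was highest in replicate 2. In the same libraries the T and NK cell marker sum was 1.42 to 1.96 FPKM with both agents, and its part in the Ccl5 values was not tested.

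The genes whose pattern over the 12 libraries was most like each chemokine were taken by Pearson's r of log2(FPKM + 1), as a description, since the points share libraries and groups. For Ccl3 they were Cd14 (r = 0.995), Cdkn1a (0.993) and Kctd12 (0.990), and for Ccl4 Cd14 (0.995), Plk2 (0.987) and Kctd12 (0.984). Cd14, the LPS co-receptor, was at 251.3 to 311.8 FPKM in controls, 1570 to 1627 with LPS, 130.7 to 140.6 with tunicamycin and 1095 to 1267 with both, the same order of groups as Ccl3. Il12b, Exoc3l4 and Cxcl3 were the 3 nearest for both Ccl5 (0.985, 0.971 and 0.966) and Ccl9 (0.969, 0.963 and 0.980). Il12b, the p40 subunit of IL-12 and IL-23, was at 20.97, 14.58 and 50.62 FPKM with LPS and 125.9, 21.48 and 41.24 with both agents. In these groups its replicates were in the order of Ccl5, and in controls and with tunicamycin alone they were not. For Ccl6 the nearest were Cbr2 (0.968), Ly86 (0.946) and Fam122b (0.944). Among the 5 themselves r was 0.993 for Ccl3 and Ccl4 and 0.969 for Ccl5 and Ccl9, and -0.031 for the neighbours Ccl6 and Ccl9.

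**Figure D5:**
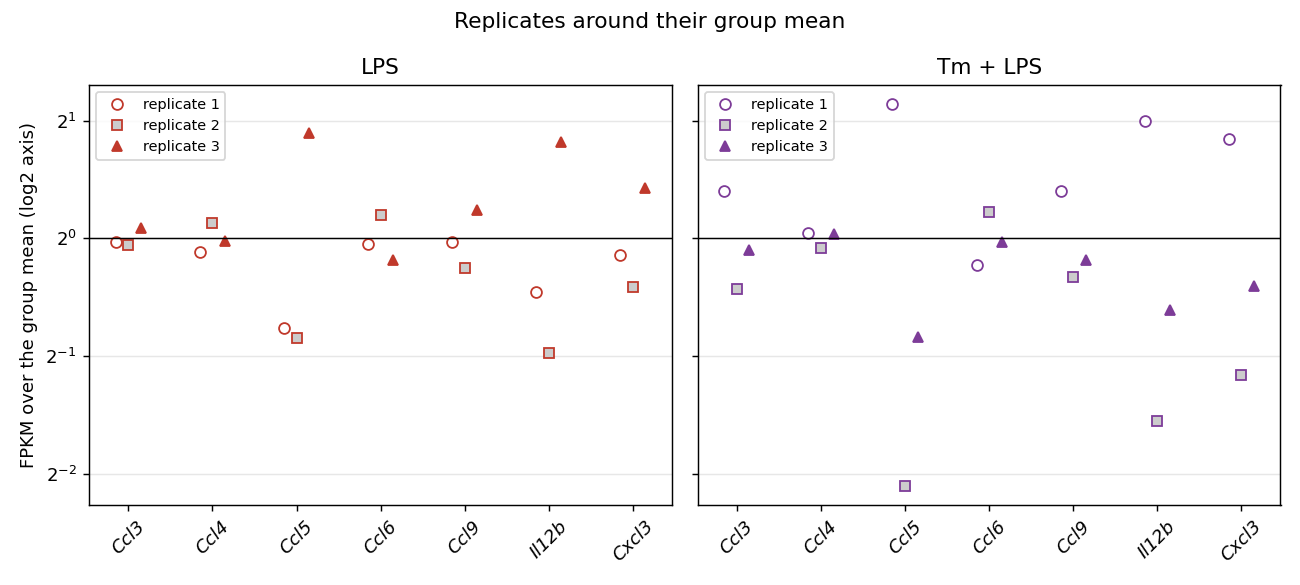
FPKM of each replicate over the mean of its group, on a log2 axis, for the 5 chemokines, Il12b and Cxcl3 in the LPS group and the group with both agents (Tm + LPS). With both agents, replicate 1 is highest and replicate 2 lowest for Ccl5 (1020 and 107.6 FPKM), Ccl9 (451.4 and 272.2) and Il12b (125.9 and 21.48).

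The receptor Ccr1, shared by Ccl3, Ccl5, Ccl6 and Ccl9, was lower in each treated group. Its mean was 45.6 ± 9.05 FPKM in controls, 16.9 ± 2.48 with LPS, 8.85 ± 1.11 with tunicamycin and 6.12 ± 2.00 with both (SD, n = 3). On the log2 scale Ccr1 fell by 1.37 ± 0.20 with LPS (limma adjusted p = 9.7e-05) and by 2.23 ± 0.20 with tunicamycin (limma adjusted p = 4.02e-07), and was lower by -1.36 ± 0.20 with both agents than with LPS (limma adjusted p = 0.000106). Ccr3, a Ccl5 receptor, was low: 2.76 ± 0.231 FPKM in controls, 5.70 ± 0.900 with LPS, 0.215 ± 0.170 with tunicamycin and 1.41 ± 0.521 with both. It fell by 1.64 ± 0.23 with tunicamycin (limma adjusted p = 4.7e-05) and rose by 0.83 ± 0.23 with LPS (limma adjusted p = 0.0189), a rise that no longer passed with a pseudocount of 0.1 (1.01, adjusted p = 0.169) or without control replicate 1 (adjusted p = 0.0679) or LPS replicate 2 (0.0654) or 3 (0.0747). The decoy receptors Ackr1 and Ackr2 were listed at 0 in all 12 libraries.

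The other CC ligands did not all follow Ccl3 and Ccl4. With LPS 4 of 8 tested rose and 0 fell in limma (median log2 fold change 1.43), where 10.5% of all genes rose. The 4 included Ccl22 (3.23 ± 0.31), Ccl7 (2.32 ± 0.13) and Ccl2 (1.99 ± 0.15). Ccl22 and the remaining riser, Ccl17, passed the filter only through libraries given LPS, which favoured their rise. With tunicamycin 3 of 8 fell and 1 rose, where 16.6% of all genes fell and 17.9% rose. The falls of the monocyte attractants Ccl2 (-4.79 ± 0.15, limma adjusted p = 7.21e-13) and Ccl7 (-4.01 ± 0.13, limma adjusted p = 1.74e-12) were larger than that of Ccl4. The 1 that rose, Ccl11, no longer passed after quantile normalization or without any 1 of 5 libraries: control replicates 1 and 3, tunicamycin replicates 2 and 3 and replicate 3 of both agents. On the log2 scale Ccl2 and Ccl7 also had a larger LPS effect with tunicamycin (3.71 ± 0.21 and 2.93 ± 0.19), as Ccl4 and Ccl3 did. The starting mean with tunicamycin was 16.2 FPKM for Ccl2 and 30.4 for Ccl7, against 479 and 509 in controls. With both agents Ccl2 (-1.08 ± 0.15, limma adjusted p = 4.62e-05) and Ccl7 (-1.08 ± 0.13, limma adjusted p = 1.65e-05) were lower than with LPS alone. Between both agents and LPS alone 4 of 8 fell and 0 rose, where 28.9% of all genes passed and 15.1% fell, with the largest fall for Ccl12 (-3.57 ± 0.58). Of 10 CXC, XC and CX3C ligands tested, 7 rose with LPS (10.5% of all genes). Of these Cxcl3, Cxcl11 and Cx3cl1 passed the filter only through libraries given LPS, which favoured their rise. With tunicamycin 4 rose, Cxcl10 most (2.75 ± 0.23), and 1 fell, where 34.5% of all genes passed. The interaction passed below 0 for 4 of these 10 and above 0 for 0, where 3.37% of all genes passed.

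Among 19 transcription factors and inhibitors known to act on chemokine genes, 14 rose and 4 fell with LPS, and 11 rose and 4 fell with tunicamycin in limma, where 18.4% and 34.5% of all genes passed. Nfkbia, the NF-kB inhibitor IκBα, rose by 3.96 ± 0.09 on the log2 scale with LPS, and the NF-kB subunits Relb (2.16 ± 0.13) and Nfkb2 (2.06 ± 0.11) rose with tunicamycin alone. The AP-1 subunits Jun (-2.41 ± 0.17, limma adjusted p = 1.76e-08) and Fos (-2.16 ± 0.23, limma adjusted p = 2.65e-06) fell with tunicamycin. Unlike Ccl3 and Ccl4, both also fell with LPS alone (Jun -1.73 ± 0.17, limma adjusted p = 6.69e-07; Fos -1.29 ± 0.23, limma adjusted p = 0.000627). With LPS after tunicamycin neither passed against tunicamycin alone (Jun 0.40, limma adjusted p = 0.129; Fos 0.24, limma adjusted p = 0.54), and their interaction was above 0 (2.13 ± 0.24 and 1.54 ± 0.33). For Nfkb2 and Relb it was below 0 (-1.72 ± 0.15 and -1.61 ± 0.18). Of 8 genes of mRNA decay tested, 3 rose and 2 fell with LPS, where 18.4% of all genes passed. Among the rises Zc3h12a reached 1 FPKM only in libraries given LPS, so the filter favoured its rise. With tunicamycin 0 of the 8 rose and 3 fell, where 34.5% of all genes passed and 16.6% fell. Zfp36, which binds the AU-rich elements described above, rose by 2.42 ± 0.13 with LPS (limma adjusted p = 4.1e-10) and was lower by -2.01 ± 0.13 with both agents than with LPS alone (limma adjusted p = 1.26e-08). Sdc4, a heparan sulphate proteoglycan of the kind that holds chemokines at the cell surface, rose by 3.62 ± 0.11 with LPS and was lower by -1.10 ± 0.11 with both agents than with LPS (limma adjusted p = 2.35e-06).

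Genes beside the chemokines on the chromosome were compared in the same way. Of the 10 other genes of the table within 100 kb of the span, 5 were tested: Taf15, Wfdc17, Wfdc18, Wfdc21 and Heatr6. With LPS only Heatr6 passed, 1 of 5 where 18.4% of all genes did, with a rise of 0.95 ± 0.22 on the log2 scale (limma adjusted p = 0.00625), against 4.70 for Ccl4. With tunicamycin 0 of the 5 passed in limma (34.5% of all genes), and 1, Taf15, had an unadjusted p under 0.05. With both agents against LPS only Taf15 passed (1.22 ± 0.36, limma adjusted p = 0.0182), where 28.9% of all genes did. Wfdc17, a whey acidic protein family gene downstream of Ccl4, had a control mean of 862 ± 288 FPKM, above all 5 chemokines.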

How the data were processed

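The values are the authors' deposited FPKM, 1 per gene and library, in 12 library columns that all match a sample. The submitters' processing notes name mm10 and the tools Cufflinks 2.2.1, TopHat2 2.0.13 with Bowtie2 2.2.3, and SAMtools 0.1.19. The labels name total RNA. Which annotation, strand setting and scaling the authors used is not given in these sources. Median-of-ratios factors of the deposited values were 1.013 to 1.019, and no pair of libraries was identical. Low genes (under 0.3 FPKM) did not share 1 step between libraries, since only 7.07% to 19% of their ratios to control replicate 1 fell within 0.02 (log2) of the modal ratio. Reads were therefore not recovered, depth is unknown, and precision is given by the spread between replicates.

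Genes with at least 1 FPKM in at least 3 libraries (10311, all 5 chemokines among them) were fitted as log2(FPKM + 1) in R 4.3.3 by limma 3.58.1 (lmFit, eBayes with trend), all 12 libraries entering 1 fit with a mean for each group. The 6 contrasts were the 5 pairs of groups reported and the interaction, (both agents minus tunicamycin) minus (LPS minus control). A gene passed at a two-sided Benjamini-Hochberg adjusted p under 0.05 over all 10311 genes. The method was tested on simulated data. The 5 genes and all lists were chosen with earlier results of these data known, so lists are described by counts and medians. Some items named by the rule below are not reported here. Besides the 5 genes, the text names receptors for them, tested neighbours within 100 kb, up to 4 passing genes of a list with the largest change, and the 3 genes most correlated with each chemokine. Coordinates and 3' UTRs come from GENCODE M21 (23310 symbols matched), and promoters from RefSeq GRCm38.p6. Alternatives were a pseudocount of 0.1, no filter or one at 5 FPKM, median-of-ratios and quantile scaling, a replicate block, only the libraries of a contrast, limma without trend or with a robust fit, and leaving out each library. Python 3.11.15 with pandas 2.3.3 and matplotlib 3.10.9 made the figures.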

Additional observations from a re-analysis of the deposited data

Results flagged for a closer look

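The LPS effect on Ccl4 and Ccl3 differed between cells with and without tunicamycin. On the log2(FPKM + 1) scale the effect with tunicamycin exceeded the effect without it by 2.50 for Ccl4 and by 1.44 for Ccl3, tested as the interaction term in limma (adjusted p = 1.1e-06 and 0.000394). Both values rest on 3 libraries in each of the 4 groups. The length of exposure to tunicamycin alone is not given, so exposure time cannot be told apart from the LPS effect with tunicamycin. Leaving out any 1 library gave 2.30 to 2.67 for Ccl4 and 1.22 to 1.63 for Ccl3. The lower starting means with tunicamycin, 45.3 against 317 FPKM for Ccl4 and 41 against 144 for Ccl3, enter both differences directly. Mean end levels were not higher with both agents than with LPS alone: 6681 against 8239 FPKM for Ccl4 and 2741 against 3399 for Ccl3.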

How the results depend on the processing

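Over 30 combinations of the 5 genes and 6 contrasts, each read in 20 or 21 alternative fits, there were 625 readings. Of these 593 had the same direction and side of the threshold, 10 gained a call, 9 lost one and 13 changed sign. Leaving out a library outside a pair of groups cannot move its fold change, so part of this agreement was fixed. The calls of Ccl3, Ccl4, Ccl5 and Ccl9 for LPS, with and without tunicamycin, passed in every alternative fit. Those of Ccl3 and Ccl4 for tunicamycin and the interaction did too. With LPS Ccl6 ranged from -0.14 to 0.20 over the libraries left out. With tunicamycin Ccl5 ranged from 0.92 to 1.75 and gained a call in the contrast's libraries alone (1.39), as did Ccl9 (0.27), which also gained one after quantile normalization (0.50). Between both agents and LPS, leaving out libraries gave -0.57 to -0.16 for Ccl3, -0.36 to -0.23 for Ccl4, 0.43 to 2.05 for Ccl5, -0.69 to -0.47 for Ccl6 and -0.30 to 0.06 for Ccl9. Quantile normalization gave Ccl4 a call (-0.54) and turned Ccl9 (0.14), and Ccl6 lost its call at -0.58 with no filter and without trend. Against controls Ccl6 lost it at -0.58 with no filter and ranged from -0.72 to -0.38. The interaction ranged from -0.95 to 0.66 for Ccl5 (0.12 after quantile normalization) and from -0.01 to 0.33 for Ccl6. The cause was not tested. Counts of genes that passed for both agents against tunicamycin were 1618 overall and 1064 to 1652 with 1 library left out (1064 without tunicamycin replicate 2), and 347 and 229 to 353 for the interaction (229 without tunicamycin replicate 3). Quantile normalization moved the share of rises among calls for both agents against tunicamycin from 55.4% to 44.9%. Replicate numbers are shared by the groups, and what they mark is not given. The 18 same-number pairs correlated at -0.039 to 0.095 and the 36 different-number pairs at -0.110 to 0.046. No pair was above 0.1, a limit set here, so the numbers were not taken to pair samples, though the same-number range lay higher. Whether the samples are paired is not known. With a replicate block the interaction stayed at 2.50 for Ccl4 and no chemokine call changed. Ccl6 was highest in replicate 2 in every group. With the block its difference of -0.58 between both agents and LPS had a standard error of 0.12 (limma adjusted p = 0.00278). Of 12 libraries 8 correlated best with their own number. Depth is unknown, which limits low values such as Ccl5 in controls.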
